A study of Homo sapiens with 6 samples.

Results

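The miR-106b~25 cluster is a group of 3 miRNA hairpins, miR-106b, miR-93 and miR-25, that lie in an intron of MCM7, which encodes a subunit of the helicase that unwinds DNA for replication. Its products were taken by name from the deposited count table as the 5p and 3p strands of each hairpin, and all 6 were present among 1247 entries. They were selected on their names with their pooled counts in control and shWDR4 exosomes already known. Those counts, and the folds and strand ratios made from them, are therefore descriptions, and no p-value was computed.

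A miRNA hairpin is cut first by Drosha and then by Dicer into a short duplex of a 5p and a 3p strand. An Argonaute protein keeps a strand, as a rule the one whose 5′ end is less tightly paired, and the other is mostly degraded. The kept strand finds messenger RNAs through its seed, bases 2 to 8. The cluster is a paralog of the oncogenic miR-17~92 cluster and is transcribed with MCM7 under E2F control in dividing cells. Known targets are the cell cycle inhibitor CDKN1A for miR-106b-5p and miR-93-5p and the pro-apoptotic BCL2L11 for miR-25-3p. The strands usually described as the main ones are 5p for miR-106b and miR-93 and 3p for miR-25.

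The series addressed the part of WDR4 in sorting miRNAs into exosomes, the small vesicles that cells release. WDR4 forms a methyltransferase with METTL1, which modifies guanosines of transfer RNA and of some miRNAs. Exosomes came from H1299, an established human non-small cell lung cancer line labelled wild type in genotype in both groups, which stably expressed a control shRNA (treatment given as N/A in the labels) or an shRNA against WDR4 (treatment shWDR4). Cells of both groups spent 48 hours in medium freed of exosomes, and each group had 3 libraries, which the deposited table joins into 1 count column per group. How many shRNA sequences or clones were used is not given in the sources used here, and the table holds no WDR4 transcript with which to check the knockdown. The control column summed to 1020282 counts and the shWDR4 column to 552913. With a pooled value per group the spread between the 3 repeats is unknown. Every interval below is an exact 95% interval for counting error, and no difference has a replicate check. A uniform change in the number of vesicles cancels in shares of a column and cannot be seen here. In pooled exosomes, less of a miRNA per vesicle and a different level in the cells cannot be told apart.

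The mature sequences are shown because the strands of a hairpin, and the seeds that group them, are what the counts separate. They are the RefSeq sequences on GRCh38.p14, matched by name for all 6 products, written 5′ to 3′ with the seed in capitals.
hsa-miR-106b-5p: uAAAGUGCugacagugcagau
hsa-miR-106b-3p: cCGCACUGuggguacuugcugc
hsa-miR-93-5p: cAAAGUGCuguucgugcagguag
hsa-miR-93-3p: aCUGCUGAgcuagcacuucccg
hsa-miR-25-5p: aGGCGGAGacuugggcaauug
hsa-miR-25-3p: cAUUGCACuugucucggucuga
Below, the species prefix hsa is dropped. The 5p strands of miR-106b and miR-93 have the same seed, that of miR-17-5p. The seed of miR-25-3p is that of the miR-92 miRNAs. No other entry with a sequence had the seed of miR-106b-3p, miR-93-3p or miR-25-5p.

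All 3 hairpins lie on the minus strand of chromosome 7 within 515 bases. In GRCh38 the miR-106b hairpin covers chr7:100093993-100094074, the miR-93 hairpin chr7:100093768-100093847 and the miR-25 hairpin chr7:100093560-100093643. GENCODE release 29 places MCM7 on the same strand at chr7:100092728-100101940. Each hairpin lies in an intron of 8 of its 13 annotated transcripts, which is intron 13 in MCM7-201, a transcript of 15 exons, and no annotated exon overlaps any of them. The RefSeq hairpins of miR-106b and miR-25, with the 5p and then the 3p strand in capitals, show where the counted strands sit on either side of the loop.
miR-106b hairpin: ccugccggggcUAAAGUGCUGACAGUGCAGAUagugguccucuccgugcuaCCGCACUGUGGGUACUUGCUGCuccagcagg
miR-25 hairpin: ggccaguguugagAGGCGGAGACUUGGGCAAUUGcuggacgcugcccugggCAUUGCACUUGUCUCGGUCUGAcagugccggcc

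The products of the cluster did not go the same way in shWDR4 exosomes with scaling to the column totals. All were higher in shWDR4 with totals over entries numbered below 1000. The 3p strand of miR-93 was many times more abundant, while the 5p strand of the same hairpin, among the most abundant miRNAs in either group, was somewhat lower with scaling to the column totals. Within each of the 3 hairpins the balance lay further toward the 3p strand in shWDR4, by a large factor in miR-93, about 2-fold in miR-106b and slightly in miR-25. In miR-25 the 5p strand, not the usual main one, held most counts in both groups.

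Counts of miR-93-3p went from 201 in control to 3169 in shWDR4. Given as CPM, the counts per 1000000 counts of the column, these were 197 (171 to 226) and 5731 (5534 to 5934), a 29.1-fold higher CPM in shWDR4 (25.2 to 33.7). It ranked 167 by CPM in control and 24 in shWDR4 among 349 evaluated entries, those whose counts in control and shWDR4 summed to 50 or more. Its log2 fold of 4.86 ranked 21 from the highest of the 349. The log2 fold stayed between 4.48 and 5.89 over the 6 other scalings tried. The authors' deposited table gave it a normalized log2 fold of -4.86, coded as control over shWDR4, and marked it.

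Its partner miR-93-5p, which restrains CDKN1A, went from 52937 to 21154 counts. In CPM this was 51885 (51455 to 52317) against 38259 (37755 to 38768), 1.36-fold lower (1.33 to 1.38). It held rank 4 in control and rank 5 in shWDR4. Its log2 fold of -0.44 lay near the median of -0.37 over the 349 entries and was -0.82 with upper-quartile scaling, but 0.22 with miR-3960, miR-6126 and miR-7704 left out of the totals and 0.58 with totals over entries numbered below 1000. Which way the 5p strand went therefore depends on the scaling, and that of the 3p strand does not over those tried. The CPM of miR-3960 went from 6172 in control to 205546 in shWDR4. That of miR-6126 went from 1002 to 102172 and that of miR-7704 from 565 to 65645. With scaling to the totals, such rises lower the CPM of all other entries in shWDR4.

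For miR-25 both strands went the same way. Counts of miR-25-5p were 2721 in control and 945 in shWDR4, a CPM 1.56-fold lower (1.45 to 1.68). Those of miR-25-3p, the strand that targets BCL2L11, were 690 and 290, a CPM 1.29-fold lower (1.12 to 1.48). Both strands of miR-25 were thus lower in shWDR4 with scaling to the totals, and both were higher, with log2 folds of 0.38 and 0.66, with totals over low-numbered entries.

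The hairpin of miR-106b gave the fewest counts. Its 5p strand, which shares its seed with miR-93-5p, went from 383 to 116 counts, a CPM 1.79-fold lower (1.45 to 2.22), and a log2 fold from -1.22 to 0.18 over the alternatives. Its 3p strand had 47 and 31 counts, a fold of 1.22 (0.748 to 1.96) whose interval includes no difference at this depth with scaling to the totals. The log2 fold of this 3p strand ran from -0.10 to 1.31 over the alternatives. At 1.31, with totals over low-numbered entries, it was past 2-fold.

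**Figure D1:**
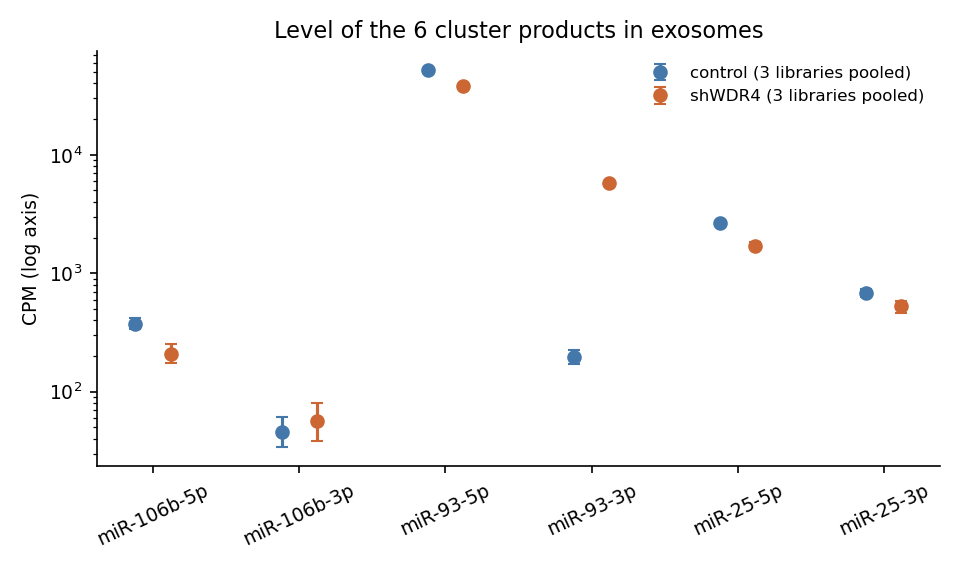
CPM (log axis) of the 6 products in control and shWDR4 exosomes, each a pooled value of 3 libraries, with bars for the exact 95% counting interval. The point of miR-93-3p lies at 197 in control and 5731 in shWDR4, while the 5p strand of the same hairpin lies at 51885 and 38259.

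Taken by the size rule of a 2-fold difference in CPM, 1 of the 6 products was higher and 0 were lower in shWDR4. Over the 349 entries, 26.1% passed it on the higher side and 31.5% on the lower side, so the number of members past the rule is no result about the cluster. With upper-quartile scaling the entries split into 21.8% higher and 43.3% lower and the members into 1 and 2, the lower ones being miR-106b-5p and miR-25-5p. With totals over low-numbered entries the entries split into 39.8% and 10.9% and the members into 2 and 0, and with miR-3960, miR-6126 and miR-7704 left out into 33.5% and 14.0%, with 1 and 0 members. The median log2 fold of the 6 was -0.40, against -0.37 for the 349. The authors' deposited table marked 1 of the 6, and 26.2% of its 1247 entries.

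Summed, the 6 products made up 5.58% of all counts in control (5.54 to 5.63) and 4.65% in shWDR4 (4.59 to 4.70). This log2 fold of -0.26 became -0.65 with upper-quartile scaling and 0.06 without miR-3960 in the totals. The 5p and 3p strands differed in this. The 5p products together went from 5.49% to 4.02% of the counts, and the 3p products from 0.0919% to 0.631%, a 6.87-fold higher share (6.39 to 7.39) that consists mostly of miR-93-3p. Without miR-93-3p the cluster took 5.56% and 4.08%.

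The make-up of the cluster does not depend on the scale of the columns. In both groups nearly all of its counts came from miR-93, which gave 93.3% of them in control (93.0 to 93.5) and 94.6% in shWDR4 (94.3 to 94.9). The share of miR-25 was 5.99% (5.79 to 6.18) and 4.80% (4.55 to 5.07), and that of miR-106b 0.755% (0.685 to 0.829) and 0.572% (0.483 to 0.672). By strand, miR-93-5p held 92.9% of the cluster in control and 82.3% in shWDR4, and miR-93-3p held 0.353% and 12.3%. Ligation and amplification differ between sequences, so counts of different miRNAs are not a measure of their relative number of molecules.

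The balance of the strands within a hairpin is likewise free of the column scale. In miR-93 the 3p strand held 0.378% of the hairpin's counts in control (0.328 to 0.434) and 13.0% in shWDR4 (12.6 to 13.5). There were 263 5p counts per 3p count in control and 6.68 in shWDR4, and the odds of a 3p count were 39.5 times higher in shWDR4 (34.2 to 45.8). In miR-106b the 3p share was 10.9% (8.14 to 14.3) and 21.1% (14.8 to 28.6), or 8.15 and 3.74 5p counts per 3p count. The odds were 2.17 times higher (1.27 to 3.68). In miR-25 the 3p share was 20.2% (18.9 to 21.6) and 23.5% (21.1 to 25.9), or 3.94 and 3.26 5p counts per 3p count, and the odds 1.21 times higher (1.03 to 1.42). The counting intervals of the 2 groups overlap for miR-25 and do not overlap for miR-106b or miR-93. The 5p strand remained the larger one in all 3 hairpins in both groups.

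**Figure D2:**
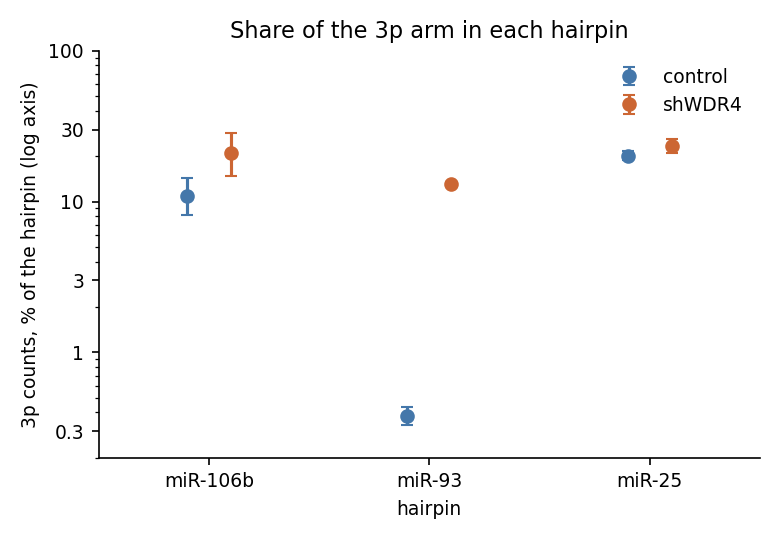
Share of the 3p strand in the counts of each hairpin (percent, log axis) in control and shWDR4 exosomes, with exact 95% counting intervals. The share of miR-93 lies at 0.378% in control and 13.0% in shWDR4, and those of miR-106b and miR-25 lie between 10.9% and 23.5% in both groups.

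To see where the 3 hairpins stand, the same odds were taken for every hairpin with both strands among the entries by name and a sum of both strands of 50 counts or more in each column, which left 87 of 294. The interval of the change lay toward 3p for 29.9% of them, toward 5p for 20.7%, and included no change for 43 hairpins. All 3 hairpins of the cluster were among those with an interval toward 3p, a description, since they were chosen with these counts known. An interval wholly past 2-fold was seen toward 3p in 11.5% and toward 5p in 9.20%, and miR-93 alone of the cluster was among them. When the 87 are ordered by the bound of the interval nearest to no change, in either direction, miR-93 came first, also with minimums of 20 and of 200 counts. An interval wholly past 10-fold was seen in 1 hairpin toward 3p, miR-93, and in 4 toward 5p. By the estimate itself miR-93 stood at 12 of 87 toward 3p and at 21 in either direction, and each hairpin ahead of it toward 3p had a strand with 0 or 1 count in a column. Toward 5p the estimates of miR-3187 (57.1 times, 21.1 to 179) and miR-23a (41.2 times, 24.7 to 73.2) were above the 39.5 times of miR-93 toward 3p, and the intervals overlap. Next to it in that order were let-7b, with 1 and 2 3p counts (42.3 times, 2.20 to 2453), and miR-6880, with 1 and 10 (13.5 times, 1.90 to 590).

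The neighbours of miR-106b in this order were miR-574 at 2.29 times toward 3p (1.72 to 3.05) and miR-149 at 1.92 times (0.961 to 3.66). Those of miR-25 were miR-339 at 1.26 times (0.893 to 1.79) and miR-126 at 1.16 times (0.921 to 1.46), so the change in miR-25 was of the size seen in hairpins whose intervals include no change. Strands going opposite ways were counted where the higher strand had 50 or more counts over the columns. A lower CPM of the 5p strand together with an at least 2-fold higher CPM of the 3p strand was seen in 3 of the 87 hairpins, miR-93, miR-1908 and miR-99b. The reverse, a lower 3p and an at least 2-fold higher 5p strand, was seen in 4, miR-137, miR-197, miR-3187 and miR-23a. Without that minimum, among hairpins with counts of both strands in control, the numbers were 6 and 5, and all of these counts use scaling to the totals. These 6 further hairpins were named after their values were seen.

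**Figure D3:**
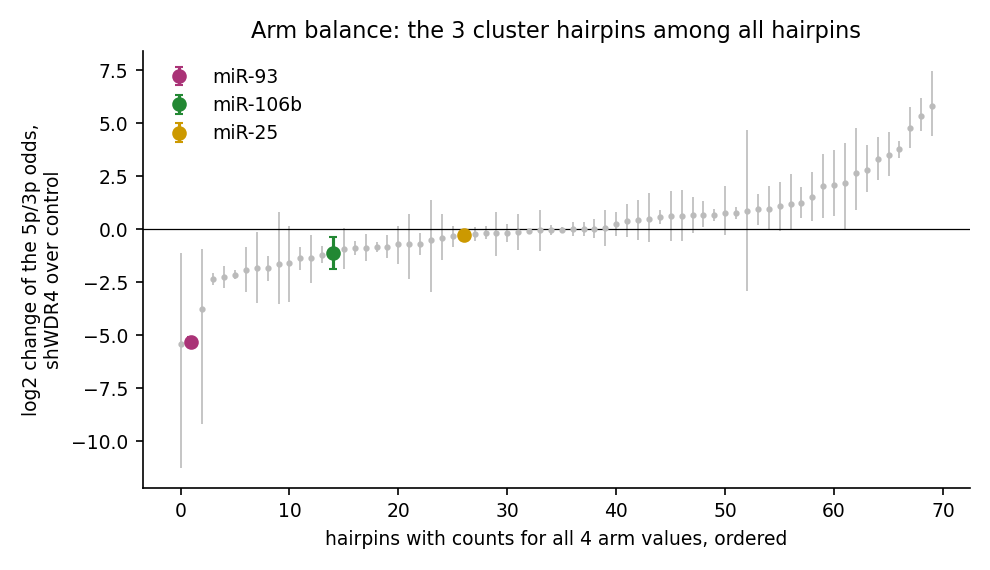
Log2 change of the odds of a 5p against a 3p count, shWDR4 over control, for the 70 of 87 hairpins with counts for both strands in both groups, ordered by the estimate, with exact 95% counting intervals. The point of miR-93 lies at -5.30 with a narrow interval, that of miR-106b at -1.12 and that of miR-25 at -0.28.

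The 5′ ends of the strands were compared because pairing there is known to guide strand choice. Among the first 4 bases, miR-106b-5p has 0 G or C and miR-106b-3p 4, miR-93-5p has 1 and miR-93-3p 2, and miR-25-5p has 3 and miR-25-3p 1. The larger strand was thus the one with fewer G or C at its 5′ end in miR-106b and miR-93, and the one with more in miR-25. Of the 53 hairpins with both sequences and an unequal number, the strand with fewer was the larger in 69.8% in control and in 62.3% in shWDR4.

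The base composition of the strands moved with the fold across the entries. GC content was 42.9% in miR-106b-5p and 63.6% in miR-106b-3p, 52.2% in miR-93-5p and 59.1% in miR-93-3p, and 57.1% in miR-25-5p, while 11 of the 22 bases of miR-25-3p are G or C. Over 310 entries with a sequence and counts in both columns, the log2 fold and the GC content had a Spearman correlation of 0.56 (Pearson 0.54), as a description of entries that share the same 2 columns. Over 58 hairpins, the excess of GC in the 3p strand and the log2 change toward 3p had a Spearman correlation of 0.44 (Pearson 0.41). In miR-106b and miR-93 the change was toward the strand richer in GC, and in miR-25 toward the poorer one. Of the 83 other entries within 5 percentage points of the GC content of miR-93-3p, 20 were at least 2-fold higher and 3 had as large a fold, and their median log2 fold was -0.16. The part of base composition in the folds was not tested.

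**Figure D4:**
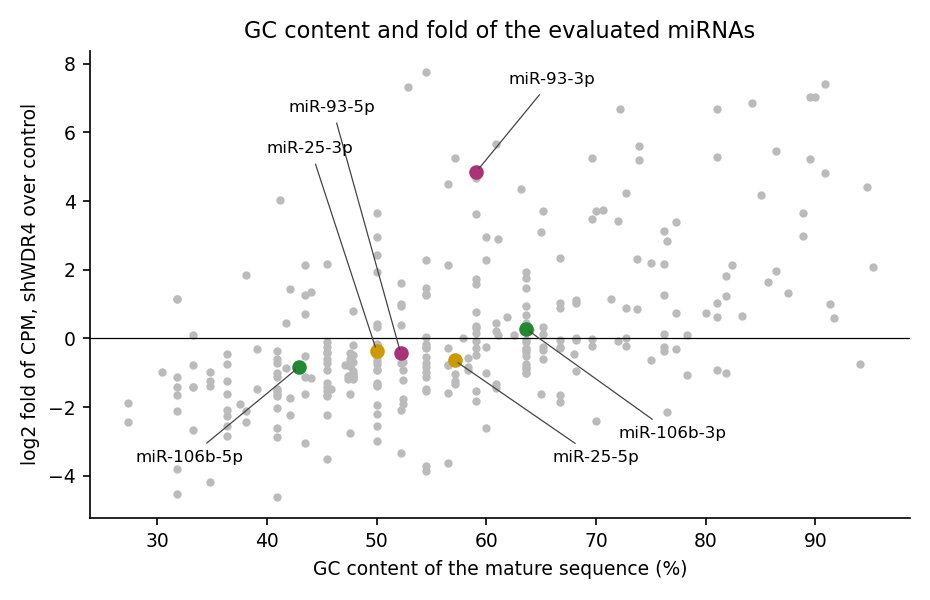
Log2 fold of CPM, shWDR4 over control, against the GC content of the mature sequence in percent for 310 entries, with the 6 cluster products in colour. The point of miR-93-3p lies at 59.1% and 4.86, far above its partner at 52.2% and -0.44, and the entries as a whole slope upward.

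Short motifs reported by others in miRNAs sorted into exosomes were looked for on the RNA strand. The motif GGAG occurred in 1 of the 6 products, at the end of the seed of miR-25-5p, and in 19.9% of the 311 evaluated entries with a sequence. The motifs CCCU and GGCU, held by 9.32% and 17.7% of those entries, occurred in none of the 6. Evaluated entries with GGAG had a median log2 fold of 0.16 and those without it -0.47, whereas miR-25-5p was at -0.64.

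The miRNAs that share a seed with the cluster's products were next set beside them. The seed of miR-93-5p and miR-106b-5p was carried by 3 further entries, all from the paralogous clusters on chromosomes 13 and X, shown to make visible how few bases set them apart.
miR-17-5p: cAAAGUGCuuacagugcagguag
miR-20a-5p: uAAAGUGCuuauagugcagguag
miR-20b-5p: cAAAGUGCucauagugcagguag
Compared base by base from the 5′ end, miR-93-5p differs from miR-17-5p at 4 of 23 bases, from miR-20b-5p at 3 of 23 and from miR-106b-5p at 5 of 21. How the authors' counting divided reads among such close sequences is not given in the sources used here, so the sum over the family is the safer value.

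Summed over its 5 entries, the miR-17 seed family made up 5.51% of all counts in control (5.47 to 5.56) and 3.95% in shWDR4 (3.90 to 4.004). In control 94.2% of these counts (94.0 to 94.3) were miR-93-5p, and in shWDR4 96.8% (96.6 to 97.0). The family's sum had a log2 fold of -0.48 with scaling to the totals. Its direction depends on the scaling. Every log2 fold shifts by 0.66 without miR-3960, miR-6126 and miR-7704 in the totals, and by 1.02 with totals over low-numbered entries. Of the 4 evaluated members, the cluster's own had the smallest folds with scaling to the totals. Counts of miR-20a-5p went from 2499 to 489, a CPM 2.77-fold lower (2.51 to 3.06), and those of miR-17-5p from 382 to 93, 2.23-fold lower (1.77 to 2.82). At 24 and 0 counts miR-20b-5p was 4.34-fold lower with 3 counts over the group in place of the 0. By the exact interval it was at least 3.26-fold lower. The near-equal counts of miR-106b-5p and miR-17-5p in control, 383 and 382, stood against 116 and 93 in shWDR4, and the intervals of these folds overlap. Of the 8 listed members of the family, 4 were evaluated, with a median log2 fold of -0.997 against -0.37 for all 349. At least 2-fold lower were 2 of them and higher 0, beside 31.5% and 26.1% of all evaluated entries, and the number lower ran from 0 to 3 over the other scalings.

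The seed of miR-25-3p was shared by 2 further entries, which regulate overlapping targets.
miR-92a-3p: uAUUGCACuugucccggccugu
miR-92b-3p: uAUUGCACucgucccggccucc
From its 5′ end miR-25-3p differs from miR-92a-3p at 4 of 22 bases and from miR-92b-3p at 6. Together the 3 entries made up 0.639% of all counts in control (0.623 to 0.654) and 0.448% in shWDR4 (0.431 to 0.466). Within this family miR-25-3p held 10.6% of the counts in control (9.85 to 11.4) and 11.7% in shWDR4 (10.5 to 13.0), and these intervals overlap. Counts of miR-92a-3p were 2140 and 1195, a fold of 1.03 (0.959 to 1.11), and its share of the family was 32.8% (31.7 to 33.99) and 48.2% (46.2 to 50.2). Counts of miR-92b-3p were 3688 and 994, a CPM 2.01-fold lower (1.87 to 2.16). With scaling to the totals the log2 fold was -0.51 for the sum of the 3 entries and -1.01 for miR-92b-3p. Leaving miR-3960, miR-6126 and miR-7704 out of the totals shifts every log2 fold by 0.66, and totals over low-numbered entries by 1.02. Whether the sum was lower in shWDR4 thus depends on the scaling, and so does the size of the miR-92b-3p fold.

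**Figure D5:**
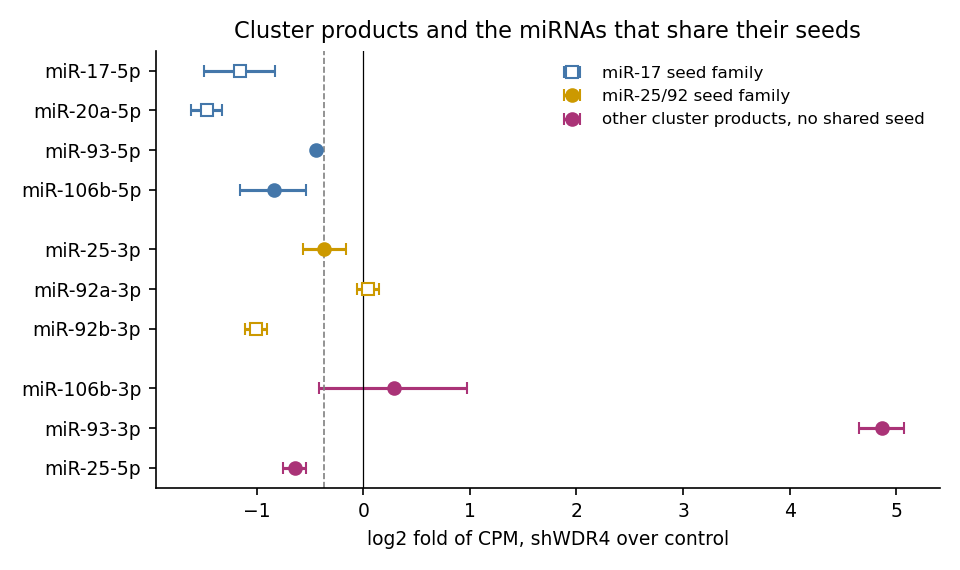
Log2 fold of CPM, shWDR4 over control, with exact 95% counting intervals, for the cluster products (filled circles) and the evaluated miRNAs that share their seeds (open squares). The dashed line marks the median of -0.37 over all 349 entries, and miR-93-3p lies at 4.86, far to the right of all others shown.

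In the paralogous miR-17~92 cluster, 9 of the 12 listed products were among the entries and 7 were evaluated, of which 1 passed the 2-fold rule as higher and 4 as lower, beside 26.1% and 31.5% of all 349. Over the other scalings 1 or 2 passed as higher and 1 to 4 as lower. The higher product, miR-92a-1-5p, is usually taken as a minor strand, but had more counts than miR-92a-3p in both groups. Counts of miR-92a-1-5p went from 2976 to 4925, a 3.05-fold higher CPM (2.92 to 3.20), while miR-92a-3p, cut from the same hairpin and from its copy on chromosome X, had the fold of 1.03 above. The strands of miR-17 also lay further toward 3p in shWDR4, with 29.9% (26.1 to 33.9) and 42.9% (35.2 to 50.9) of the counts, and odds 1.76 times higher (1.21 to 2.57). Those of miR-20a did not differ beyond counting error, with a 3p share of 2.72% (2.13 to 3.43) and 1.61% (0.697 to 3.15). Of the 12 listed products of the paralogous cluster of miR-106a on chromosome X, 4 were among the entries, and 1 was evaluated, miR-92a-3p.

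The 3 entries nearest to the larger strand of each hairpin were taken by Euclidean distance in log2(CPM + 1) over the 2 pooled columns. Nearest to miR-93-5p were miR-423-5p and miR-3184-3p, both at a distance of 0.34 and with identical counts of 52349 and 16692, and then miR-191-5p at 0.96. Nearest to miR-25-5p were miR-30a-5p and miR-421 at 0.19 and miR-744-5p at 0.22. Nearest to miR-106b-5p were miR-335-5p and miR-30e-5p at 0.09 and miR-1301-3p at 0.14. With 2 columns such likeness says that the levels were close in both groups.

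Markers of blood, vessel and liver miRNAs, which serum can add to a culture, had a lower summed level in shWDR4 beside these values. All 8 listed markers were among the entries. Their sum was 12540 CPM in control and 3011 CPM in shWDR4, of which the vessel miR-126-3p made up 9756 and 2085 CPM. All 4 evaluated ones were at least 2-fold lower, against 31.5% of all evaluated entries, and 2 were without miR-3960, miR-6126 and miR-7704 in the totals or with totals over low-numbered entries. Of those below 50 counts, the white cell miR-150-5p had 24 and 18 counts, a fold of 1.38 (0.708 to 2.66), and the red cell miR-451a 0 and 3. The part of serum in the values of the cluster was not tested.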

How the data were processed

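Small RNA libraries of exosomes were made, per the labels' protocols, by ligating adaptors to both ends, amplifying and selecting by size. The deposited values are raw read counts of mature miRNAs, not normalized by the authors, with the 3 libraries of a group joined into 1 column per the file headers. The submitters' processing notes list FastQC, Trim Galore, Bowtie, SAMtools and edgeR but no role or version. Not given in the sources used here are the genome build, the annotation, the rule for reads matching several miRNAs and the use of molecular identifiers. The authors' deposited log2 fold is control over shWDR4. Their normalized log2 fold equalled the recomputed one with its sign reversed in 720 entries, to within 5.8e-15. Storey q-values were deposited by the authors for pooled columns, and the mark needs a q-value under 0.001. A q-value under 0.001 alone did not give the mark. The products miR-93-5p, miR-25-5p, miR-106b-5p and miR-25-3p had such a value and were not marked.

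Counts were divided by column totals (CPM). The edgeR quasi-likelihood test and its replicate block needed values per library and were not run. Shares have exact Clopper-Pearson intervals, folds exact intervals conditional on the sum of both counts, and strand odds exact conditional intervals (95%). Amplified reads are not independent molecules, so these intervals and floors cover counting error only. A count of 0 allows 3 counts, or 2.94 CPM in control and 5.43 in shWDR4. For miR-20b-5p, at 0 in shWDR4, a fold with these 3 counts is given beside the bound of the exact interval. An entry was evaluated if its counts in both columns summed to 50 or more. Alternatives changed the scaling (edgeR 4.0.16), the fold and count minimums and the interval. The fold and share intervals were tested only on simulated Poisson and binomial counts, the model that they assume. The simulation held no spread between libraries, so it does not show how the intervals do with such spread. RefSeq sequences matched 1115 of 1247 entries by name. Named entries were the 6 products, the listed seed families and paralogous clusters, the 3 entries nearest to each larger strand, and the hairpins next to each in strand change. Members and lists were chosen with earlier results of these data known.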

Additional observations from a re-analysis of the deposited data

How the results depend on the processing

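The log2 fold of the summed cluster was -0.26 with column totals, -0.11 with TMM, -0.15 with median ratio and -0.65 with upper-quartile scaling. It was 0.06 without miR-3960 in the totals, 0.40 without miR-3960, miR-6126 and miR-7704, and 0.76 with totals over low-numbered entries, so its sign is not settled by these counts. Upper-quartile scaling shifted every log2 fold by -0.38 and totals over low-numbered entries by 1.02. Members at least 2-fold higher numbered 1, and 2 with totals over low-numbered entries. Members at least 2-fold lower numbered 0, and 2 with upper-quartile scaling, while 2 were past a 1.5-fold threshold on the lower side. The list counts by scaling and the strand counts without a minimum were added after seeing the data. Leaving out miR-3960, miR-6126 and miR-7704 moved the entries at least 2-fold lower from 110 to 49, and totals over low-numbered entries moved them to 38 and the higher ones from 91 to 139. The strand shares of the 3 hairpins are free of scaling and stayed within their intervals with 0.5 added to each strand. Wilson intervals leave the share itself unchanged, and 0.5 can move shares of such counts only little, so neither is a check of the shares. The number of hairpins with an interval past 2-fold toward 5p was 8, 16 with a minimum of 20 counts and 3 with a minimum of 200, and toward 3p 10, 11 and 8. No paired analysis was possible because the deposited columns join the 3 libraries of each group, and for the same reason no replicate was left out. Depth limits miR-106b-3p most, with 47 and 31 counts.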
